A study of Mus musculus with 6 samples.

Results

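The glycosyltransferases examined here are the genes of the mouse families Galnt, C1galt, Gcnt, B3gnt, B3galt, B4galt, B4galnt, Mgat, Fut, St3gal, St6gal and St8sia. Members were all probe sets whose only gene symbol began with 1 of these 12 family names followed by a digit, which gave 102 probe sets of 60 genes among 12393 genes with a symbol of their own on the array. Signal was measured in total RNA of the proximal colon from 3 mice heterozygous for a BayGenomics gene trap in Mthfd1 (genotype Mthfd1/+) and 3 wild-type mice, 1 array per mouse. All 6 mice had been weaned onto the AIN-93G control diet and were 8 weeks old after 5 weeks on it. Mthfd1 encodes a folate enzyme of one-carbon metabolism, and the series concerns it as a modifier of intestinal tumour formation. Where in the gene the trap sits, and the strain and sex of the mice, are not stated in the labels. Bulk tissue was used, so fewer cells of a type and less RNA per cell cannot be told apart.

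Glycosyltransferases sit in the Golgi and add sugars to proteins and lipids, 1 sugar at a time. In the colon much of their work is the O-glycosylation of mucins, the gel-forming and surface proteins of the mucus layer. Galnt enzymes attach the first N-acetylgalactosamine to serine or threonine, C1galt1 adds galactose to make the core, Gcnt enzymes branch it, and B3gnt and galactosyltransferases lengthen it before fucose and sialic acid cap the chain. Mgat enzymes branch the N-glycans of other glycoproteins, and several of the B4galnt, B4galt and sialyltransferase genes also build glycolipids.

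Values are the deposited signals in scaled intensity units, in which the trimmed mean of every array is 500.2. Signal differences were taken as log2(signal + 16), heterozygous minus wild-type, so those of dim genes are understated. Probe sets with a mean signal under 95.8, the 40th percentile, were not tested. This left 56 member probe sets of 40 genes among 13576 tested, and the other 46 member probe sets, with means from 3.15 to 94.1, were described only. Mthfd1 itself had signals of 453, 509.6 and 549 in heterozygous colon and 949.9, 839 and 881 in wild-type colon at its brightest probe set (log2 difference -0.80, SE 0.12, limma adjusted p = 0.125). The heterozygous arrays were the lower at all 3 of its probe sets, which checks the labels only if those lie downstream of the trap. The colon epithelium marker Car1 read 15639.9, 15443 and 19084 in heterozygous and 16525, 16800.1 and 16365 in wild-type arrays. The goblet cell product Zg16 read 17876, 17331 and 18049 in heterozygous and 18154, 18276 and 18626 in wild-type arrays, so both were bright in all 6. Not every colon epithelium marker was as even: Aqp8 ran from 668 in wild-type replicate 3 to 3454 in heterozygous replicate 2. Ileal genes varied widely within both genotypes. Fabp6, the ileal bile acid binding protein, read 382, 5622 and 728 in heterozygous replicates 1 to 3 and 1317, 5662 and 93.5 in wild-type replicates 1 to 3. Wild-type replicate 3 was the lowest of the 6, and it also stood apart in the members described here.

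No member passed the test between the genotypes. Over all 13576 tested probe sets, limma called 0 at an adjusted p under 0.05, a background of 0%, and 0 of the 56 member probe sets were called (smallest adjusted p 0.686, for St8sia4). At an unadjusted p under 0.05, limma gave 2 of 56 members, or 3.57%, against 5.68% of all tested probe sets. Of these, 1 was higher, against 3.12% of all tested probe sets, and 1 was lower, against 2.56%. The 3 heterozygous arrays lay wholly above or below the 3 wild-type arrays for 4 of 56 members, or 7.14%, against 10.4% of all tested probe sets. These 4 were St8sia4, which was higher (1.79% of members, background 5.27%), and Galnt2, Galnt7 and Mgat1, which were lower at 1 probe set each (5.36% of members, background 5.1%). In either direction together both shares lay under the background, and the share lower was near it. Of the 46 member probe sets below the filter 2 were higher without overlap (4.35%, against a background of 3.47% of all 9050 such probe sets) and 3 lower (6.52%, background 8.76%), together 10.9% against 12.2%.

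The intervals limit what could have been missed. The 95% interval of the log2 difference lay within a 2-fold change either way for 47 of the 56 probe sets and within a 1.5-fold change for 30. For the other probe sets such a change in at least 1 direction lay within the interval, so 3 mice per genotype did not exclude it. The median log2 difference of the 56 was -0.08, against 0.0022 for all tested probe sets, with 18 members above 0 and 38 below, whereas 50.7% of all tested probe sets were above 0. The tilt was smaller without wild-type replicate 3, the array in which members most often read highest. Leaving out a wild-type array because members read high in it tends to move the log2 differences upward, so that fit is a description and not a test. Families differed in it: the Galnt median went from -0.14 to -0.02 and the B4galt median from -0.08 to -0.15. Without that array the median of the members was -0.01, with 24 above 0 and 32 below, against 0.01 for all tested probe sets.

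**Figure D1:**
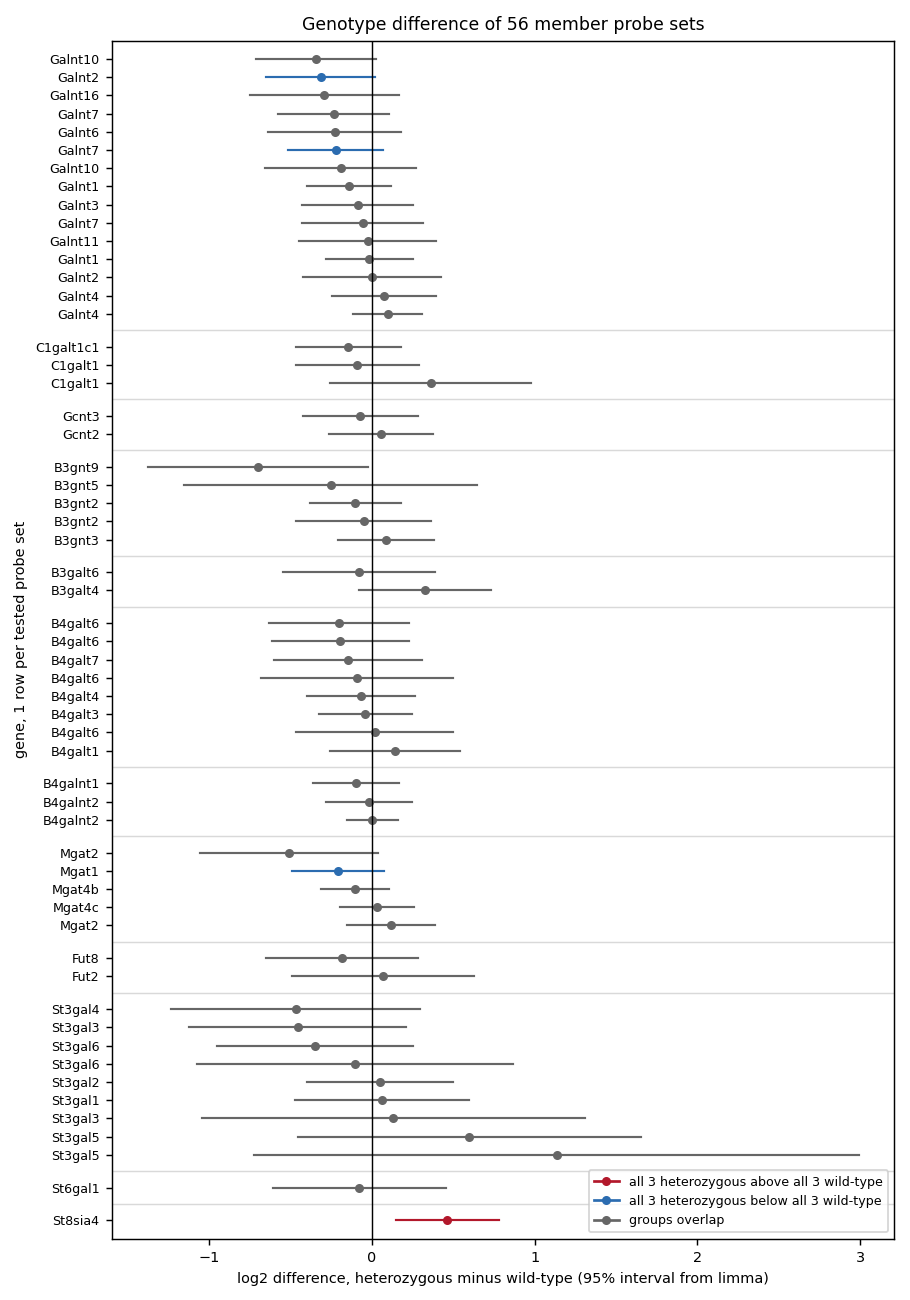
Log2 difference in signal, heterozygous minus wild-type, for the 56 tested member probe sets in order of family, 1 row each, with the 95% interval from limma. St8sia4 is the 1 probe set in red (all heterozygous arrays higher), the 3 in blue are Galnt2, Galnt7 and Mgat1, and the widest intervals are those of St3gal5.

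The Galnt family, which starts mucin-type O-glycans, had 9 genes, all of them tested at 15 of 19 probe sets. In order of the signal of each gene's brightest probe set they ran Galnt4, Galnt7, Galnt3, Galnt1, Galnt10, Galnt11, Galnt2, Galnt6 and Galnt16. This is an order of signal and not of transcript amount, because probe sets differ in how well they bind. Galnt4, whose human enzyme prefers peptides that already carry a sugar, read 4299, 4746 and 4308 in heterozygous and 3810.4, 4185 and 4510.2 in wild-type colon. The groups overlapped and the log2 difference was 0.10 (SE 0.09). Galnt7, another enzyme that acts on partly glycosylated peptides, read 2136, 2286 and 1654 in heterozygous and 2287, 2393 and 2362 in wild-type colon. All 3 heterozygous arrays were lower, with the nearest pair at 2285.6 in heterozygous and 2286.9 in wild-type colon. The difference did not pass the test (log2 difference -0.22, SE 0.13, limma adjusted p = 0.912). The other tested probe sets of Galnt7 were at -0.23 and -0.06 with overlapping groups.

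Galnt3, which in mouse and human also protects the hormone Fgf23 from cleavage, read 1125, 1098 and 1050 in heterozygous and 1095, 986 and 1450 in wild-type colon. The groups overlapped, with wild-type replicate 3 highest. Galnt1, a broadly expressed member, was among the steadiest genes of the set, at 942, 1049.5 and 1099.7 in heterozygous and 1066, 1173 and 1166 in wild-type colon. Galnt2, also broadly expressed, gave unlike values at its probe sets. Its dimmer tested probe set read 223, 179 and 182 in heterozygous and 226, 238 and 274 in wild-type colon, with all 3 heterozygous arrays lower (log2 difference -0.32, SE 0.15, limma adjusted p = 0.888). Its brighter probe set read 322, 328 and 387 in heterozygous and 255, 385 and 418 in wild-type colon, with overlapping groups and a log2 difference of -0.0021. Galnt10, a further enzyme of glycosylated peptides, had the most negative log2 difference of the family, -0.34 (SE 0.16) at its dimmer probe set, where heterozygous replicate 1, at 182, overlapped wild-type replicate 1, at 181. Of the 15 Galnt probe sets 13 had a negative log2 difference, with a family median of -0.14. Without wild-type replicate 3 the family median was -0.02, with 8 of 16 probe sets negative.

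**Figure D2:**
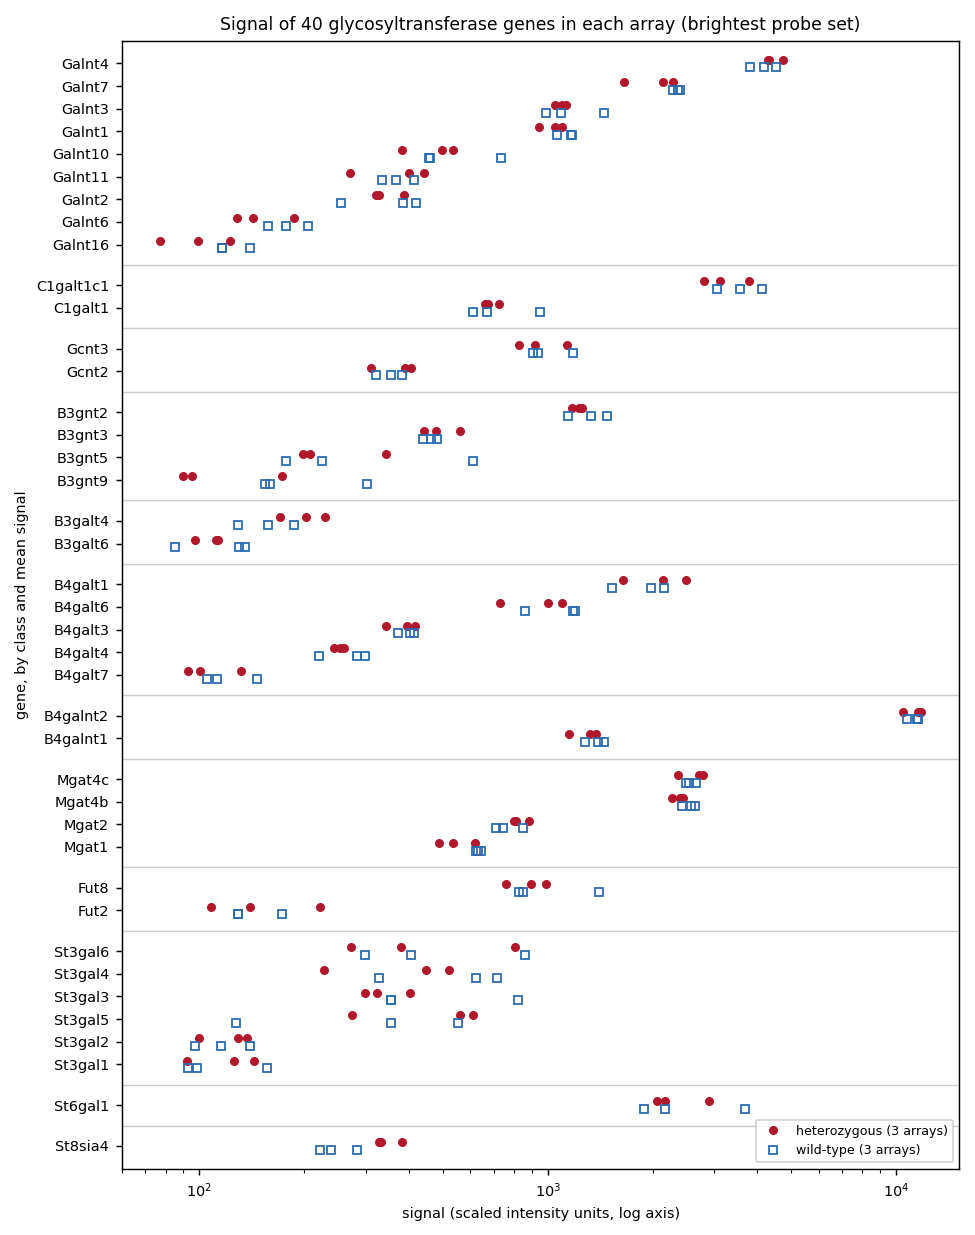
Signal in scaled intensity units, on a log axis, of the 40 tested genes at their brightest probe set, by family and mean signal; red dots are the 3 heterozygous arrays and open blue squares the 3 wild-type arrays. B4galnt2 lies at 10481 or above in all 6 arrays, and the red and blue points overlap in all rows except those of St8sia4, Galnt7 and Mgat1.

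The enzyme pair that makes core 1 was readily measured. C1galt1c1, the X-linked chaperone Cosmc that C1galt1 needs to fold, read 3785, 3128 and 2802 in heterozygous and 3557, 3060.4 and 4122 in wild-type colon. C1galt1, the galactosyltransferase itself, read 662, 723 and 673 in heterozygous and 612, 671 and 951 in wild-type colon at its brighter probe set. Both had overlapping groups, with log2 differences of -0.14 (SE 0.14) and -0.09 (SE 0.17). The dimmer tested probe set of C1galt1 pointed the other way, at 0.36 (SE 0.27), and also overlapped. Among the branching enzymes Gcnt3, the mucosal enzyme of core 2 and core 4 branches, read 918, 1139 and 825 in heterozygous and 906, 1181 and 939 in wild-type colon. Gcnt2, which makes the branched I antigen, was tested at 1 of 7 probe sets and read 312, 389 and 404 in heterozygous and 322, 381 and 356 in wild-type colon. Gcnt1, the core 2 enzyme known from leukocytes, did not pass the filter, with signals of 43.5, 39 and 65.6 in heterozygous and 55.4, 15.1 and 24.3 in wild-type colon. The groups of Gcnt3 and Gcnt2 overlapped, with log2 differences of -0.07 and 0.05.

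Chain extension by B3gnt enzymes was led in signal by B3gnt2, the main enzyme of poly-N-acetyllactosamine chains, at 1255, 1174 and 1234 in heterozygous and 1147, 1328 and 1480.3 in wild-type colon. B3gnt3, which lengthens core 1 in mucosal tissue, read 441, 477 and 559 in heterozygous and 482, 462 and 439 in wild-type colon. Neither separated the genotypes, with log2 differences of -0.10 (SE 0.12) and 0.09 (SE 0.13). B3gnt9, a less studied member, had the lowest log2 difference of the set and the other unadjusted p under 0.05. It read 172, 95.3 and 90 in heterozygous and 159.6, 155 and 304 in wild-type colon (log2 difference -0.70, SE 0.30, unadjusted p = 0.0433, limma adjusted p = 0.861). Heterozygous replicate 1 lay among the wild-type values. Without wild-type replicate 3, the highest array, the log2 difference was -0.41 (limma adjusted p = 0.769). B3gnt5, which starts lacto-series glycolipids, read 344, 198 and 208 in heterozygous and 225, 177 and 611 in wild-type colon, again with wild-type replicate 3 the highest. B3gnt4 and B3gnt8 were below the filter, with means of 4.83 and 8.62.

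Galactose is added by the B3galt and B4galt families. B4galt1, the broad N-acetyllactosamine synthase that in the mammary gland makes lactose, had the highest signal of them, at 1642, 2142 and 2497 in heterozygous and 1979, 2161 and 1528 in wild-type colon. Its groups overlapped (log2 difference 0.14, SE 0.18). B4galt6, a lactosylceramide synthase, read 730.3, 1099.7 and 999 in heterozygous and 1198, 1179 and 858 in wild-type colon at the brightest of its 4 tested probe sets, whose log2 differences lay between -0.20 and 0.02. B4galt3 and B4galt4 had mean signals of 389.9 and 259.9, and B4galt7, of the proteoglycan linker, 115. B4galt2 and B4galt5 were below the filter. In the B3galt family the ganglioside enzyme B3galt4 read 171, 230.2 and 202 in heterozygous and 158, 129 and 187 in wild-type colon (log2 difference 0.32, SE 0.18, limma adjusted p = 0.912), with overlapping groups. B3galt6, also of the proteoglycan linker, had a log2 difference of -0.08, while B3galt1, B3galt2 and B3galt5 did not pass the filter. The dim signal of B3galt5, which in human colon makes type 1 chains, ran from 1.8 to 37.4.

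B4galnt2 was the brightest gene of the whole set and among the steadiest. It encodes the enzyme of the Sda blood group antigen and is known to be expressed in mouse intestinal epithelium. Its brightest probe set read 10481, 11819 and 11579.8 in heterozygous and 11462, 11574 and 10779 in wild-type colon, at percentile 99.4 of all probe sets, and the second 2168, 2319 and 2473 in heterozygous and 2598, 2444 and 2037 in wild-type colon. The groups overlapped at both, and the log2 difference at the first was 0.0015 (SE 0.07), with a 95% interval from -0.16 to 0.16. Its within-genotype SD was 0.0764 on the log2 scale. B4galnt1, the ganglioside GM2 synthase, read 1148, 1327 and 1374 in heterozygous and 1452, 1393 and 1277 in wild-type colon (log2 difference -0.10, SE 0.12).

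N-glycan branching was led by Mgat4c and Mgat4b. Mgat4b, which adds a branch to the first mannose arm, was the steadiest probe set of the 56, at 2393, 2277 and 2452 in heterozygous and 2573, 2429 and 2651 in wild-type colon. Its within-genotype SD was 0.0592 (log2 scale) and its log2 difference -0.10 (SE 0.09). Mgat4c, a relative of less settled activity, read 2714, 2789.6 and 2366 in heterozygous and 2658, 2537 and 2500.1 in wild-type colon. Mgat1, the enzyme that opens the way to complex N-glycans, read 488, 536 and 618 in heterozygous and 631, 622 and 644 in wild-type colon. All 3 heterozygous arrays were lower, with the nearest pair at 618 in heterozygous and 622 in wild-type colon (log2 difference -0.21, SE 0.13, limma adjusted p = 0.917). Mgat2, which acts on the next arm, gave log2 differences of opposite sign, 0.12 (SE 0.12) at the brighter and -0.51 (SE 0.24) at the dimmer probe set, with overlapping groups at both. Mgat3, Mgat4d and Mgat5 were below the filter, with means of 24.2, 19 and 15.7 at their brightest probe sets.

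Only 2 of 7 fucosyltransferase genes passed the filter, Fut8 and Fut2. Fut8, which adds the core fucose of N-glycans, read 987, 757 and 898 in heterozygous and 852, 825 and 1406 in wild-type colon. Wild-type replicate 3 was the high array, and the groups overlapped (log2 difference -0.18, SE 0.21). Fut8, Galnt16 and Mgat2 lie on chromosome 12, as Mthfd1 does. Fut2, the secretor gene that places fucose on gut epithelial glycans, read 222, 108 and 139.6 in heterozygous and 129, 129 and 173 in wild-type colon, with heterozygous replicate 1 highest (log2 difference 0.07, SE 0.25). Fut1, Fut4, Fut7, Fut9 and Fut10 had means between 3.15 and 25.4.

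Among the sialyltransferases the St3gal family had the widest spread between mice of all 12 families, with a median within-genotype SD of 0.593 on the log2 scale. St8sia4, a polysialyltransferase known from brain and leukocytes, had the 1 tested member probe set with a higher signal in all 3 heterozygous mice. It read 382, 329 and 332 in heterozygous and 222, 239 and 284 in wild-type colon. Its log2 difference was 0.46 (SE 0.14, 95% interval 0.15 to 0.78, unadjusted p = 0.0091, limma adjusted p = 0.686), so it did not pass. A second probe set of St8sia4, below the filter, was lower in all 3 heterozygous arrays, at 4.3, 5 and 22.5 in heterozygous and 26.3, 24.1 and 25.6 in wild-type colon. Of 7 tested macrophage and dendritic cell markers 6 were above 0, and Cd68 was below, at -0.13. Csf1r, Cd14 and Itgax were higher without overlap, 3 of the 7, against 5.27% of all tested probe sets. The 7 summed to 5545, 6889 and 7748 in heterozygous and 5549.5, 6041 and 4997 in wild-type replicates 1 to 3. The 6 measured T-cell markers summed to 394, 701 and 999 in heterozygous and 399, 443 and 436 in wild-type replicates 1 to 3. Only Cd3d and Cd3g of these were tested, both were above 0, and none of either list passed. Of 12 interferon response genes 9 were tested, all above 0 with a median log2 difference of 1.45, and 0 passed (smallest limma adjusted p 0.0583). This list was written with earlier results of these data known, so the shared direction of its genes is no independent evidence. Their summed signal was 4933, 8137 and 8863 in heterozygous and 2806, 2302 and 2801 in wild-type replicates 1 to 3. Heterozygous replicate 1, where St8sia4 read highest, had the lowest of the heterozygous sums in each of these lists. The part of such cells or of that response in the St8sia4 values was not tested. St8sia1, St8sia2, St8sia3 and St8sia5 were below the filter, with means of 14.9 to 65.8 at their brightest probe sets.

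St6gal1, which caps N-glycans and is known from liver and B cells, read 2898, 2166 and 2054 in heterozygous and 1894, 2172 and 3684 in wild-type colon. Wild-type replicate 3 was the high array and the groups overlapped (log2 difference -0.08, SE 0.23). Among the 6 St3gal genes, all tested, St3gal6 had the highest mean signal. It sialylates lactosamine chains and read 806, 273 and 379 in heterozygous and 299, 404 and 861 in wild-type colon, with heterozygous replicate 1 and wild-type replicate 3 far above the other arrays. St3gal4, a related enzyme, read 521, 447 and 228 in heterozygous and 328, 717 and 622 in wild-type colon. Its log2 difference of -0.47 (SE 0.34) lay within the spread, and heterozygous replicate 3 was the low array. St3gal3 read 402, 323 and 299 in heterozygous and 355, 355 and 823 in wild-type colon, with wild-type replicate 3 far above the other 5. St3gal1 and St3gal2, which cap core 1 O-glycans and gangliosides, were dim, with mean signals of 118 and 119.7 and log2 differences of 0.06 and 0.05.

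St3gal5, the ganglioside GM3 synthase, had the widest spread of all members. It read 149.6, 359.7 and 420 in heterozygous and 232, 349 and 12.4 in wild-type colon at the dimmer and 274, 559 and 611 in heterozygous and 356, 551 and 127 in wild-type colon at the brighter of its probe sets. Wild-type replicate 3 was the lowest array at both. The log2 differences, 1.13 (SE 0.82) and 0.60 (SE 0.47), were the most positive of the 56 and depended on that array. Without it they were -0.00046 and 0.04.

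The promoters of 3 sialyltransferases are shown because St3gal5 and St3gal6 stood at opposite ends in the same array and St8sia4 came nearest to the threshold. RefSeq's GRCm38.p6 table held promoters for 43 of the 60 genes, at 66 start sites. Each sequence is the 200 bases before the start, with matches to 3 motifs, searched on both strands, in capitals. The motifs were the TATA box TATAAA, the CCAAT box CCAAT and the GC box GGGCGG. St3gal5 is at chr6:72097408-72097607 on the + strand, St3gal6 at chr16:58523427-58523626 and chr16:58524254-58524453 on the - strand, and St8sia4 at chr1:95667595-95667794 on the - strand.
St3gal5: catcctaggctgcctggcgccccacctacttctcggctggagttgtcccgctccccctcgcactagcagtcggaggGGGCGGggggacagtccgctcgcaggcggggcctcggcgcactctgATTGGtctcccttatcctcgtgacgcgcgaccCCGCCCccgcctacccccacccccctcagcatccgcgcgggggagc
St3gal6 downstream start: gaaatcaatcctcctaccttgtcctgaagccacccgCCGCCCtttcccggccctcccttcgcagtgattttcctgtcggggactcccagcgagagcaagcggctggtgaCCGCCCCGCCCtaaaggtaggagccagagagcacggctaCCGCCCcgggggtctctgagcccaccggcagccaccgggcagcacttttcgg
St3gal6 upstream start: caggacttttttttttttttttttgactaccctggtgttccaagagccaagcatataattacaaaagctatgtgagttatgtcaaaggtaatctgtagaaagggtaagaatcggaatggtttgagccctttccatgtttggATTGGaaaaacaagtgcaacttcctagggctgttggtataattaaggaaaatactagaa
St8sia4: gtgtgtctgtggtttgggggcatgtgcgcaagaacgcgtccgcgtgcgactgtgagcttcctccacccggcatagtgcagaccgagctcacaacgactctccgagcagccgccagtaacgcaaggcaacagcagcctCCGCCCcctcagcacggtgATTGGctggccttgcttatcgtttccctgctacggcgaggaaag
St3gal5 had 1 CCAAT box and 2 GC boxes. The downstream start of St3gal6 had 4 GC box matches, a pair of which overlap, and no CCAAT box, whereas its upstream start had 1 CCAAT box and 36% G and C. St8sia4 had 1 CCAAT box and 1 GC box. None held TATAAA in this window. Of all 32851 promoters in the table, 9.96% held TATAAA, 29.3% CCAAT and 31% GGGCGG within the same window. Of the 66 promoters of members, 3.03% held TATAAA, 31.8% CCAAT and 48.5% GGGCGG. A match is a description of letters, and which start the colon uses was not measured.

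The spread between mice of 1 genotype was unequal over the set. The median within-genotype SD of log2 values was 0.23 for the 56 member probe sets and 0.18 for all tested probe sets. Of the members, 13 probe sets of 10 genes, or 23.2%, had an SD above 0.349, the 90th percentile of all tested probe sets. Spread falls with signal, so the members were also placed among probe sets of like signal. With all tested probe sets in 10 bins of mean signal, 12 of the 56, or 21.4%, lay above the 90th percentile of their own bin, and 25 lay under its median. St3gal genes took 6 of the 13 widest probe sets (St3gal5, St3gal3 and St3gal6 at 2 each) and St3gal4 a seventh. The others were B3gnt5, B3gnt9, C1galt1 at its dimmer probe set, St6gal1, B4galt6 at its dimmest and Fut2.

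**Figure D3:**
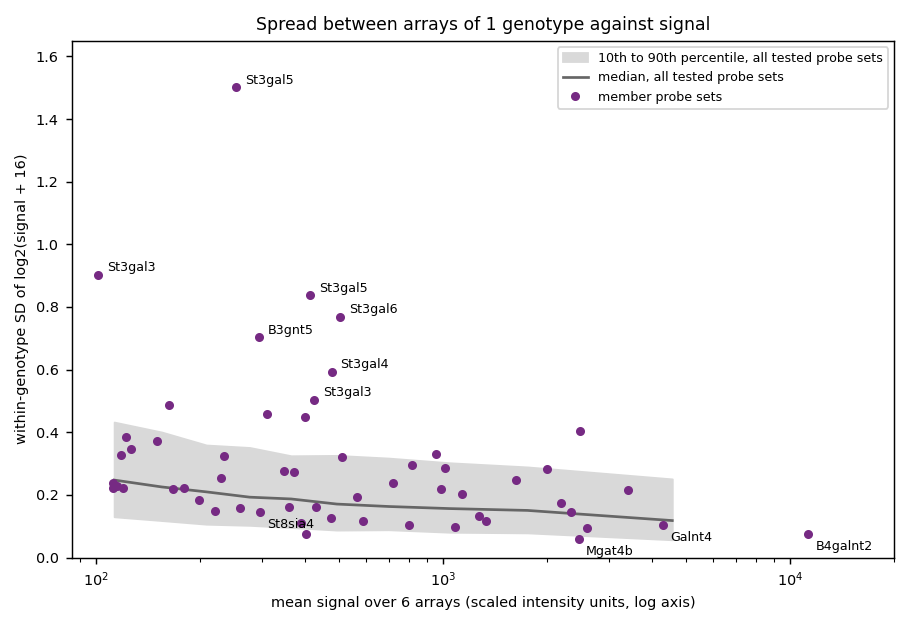
Within-genotype SD of log2(signal + 16) against mean signal on a log axis; purple points are the 56 member probe sets, and the grey band and line give the 10th to 90th percentile and the median of all tested probe sets in 10 bins of signal. St3gal5, St3gal3, St3gal6, B3gnt5 and St3gal4 lie well above the band, while B4galnt2 and Mgat4b are among the lowest points.

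The wide members had their highest signal most often in wild-type replicate 3, whereas their lowest was divided over several arrays. Of the 13, 7 were highest in wild-type replicate 3 and 3 were lowest there. St3gal3, B3gnt5, B3gnt9, St3gal6 and St6gal1 were high in that array, and St3gal5 and B4galt6 were low. Heterozygous replicate 3 was highest for 3 and lowest for 3. Heterozygous replicate 1 and wild-type replicates 1 and 2 were highest for 1 each. The lowest array was heterozygous replicate 2 or wild-type replicate 1 for 3 each, and wild-type replicate 2 for 1. Heterozygous replicate 1 stood on the same side as wild-type replicate 3 of the 6-array mean for all 13, less far from it for 12 and farther for Fut2. Of 6 tested ileal genes 5 were lowest in wild-type replicate 3, and Slc10a2 in heterozygous replicate 3; heterozygous replicate 1 was the second lowest for 4 of the 6. Apoa1, an apolipoprotein of the small intestine, read 43, 3949 and 378 in heterozygous replicates 1 to 3 and 2397, 7712 and 29.5 in wild-type replicates 1 to 3. Summed markers of several other cell types were also highest in wild-type replicate 3. The summed signal of 9 measured goblet cell markers was 80222, 78374 and 76833 in heterozygous replicates 1 to 3 and 81169, 80802 and 94895 in wild-type replicates 1 to 3, and that of 6 smooth muscle markers was 44979, 35976 and 38964 in heterozygous and 41512, 36794 and 51283 in wild-type replicates. Fibroblast markers summed to 20350.2, 16908 and 20129 in heterozygous and 17430.2, 16179 and 22933 in wild-type replicates 1 to 3. The 6 measured B and plasma cell markers summed to 6362, 6717 and 6429.9 in heterozygous and 5265, 5234 and 7624 in wild-type replicates 1 to 3. Most of this sum was Jchain, at 5697, 6444 and 6120 in heterozygous and 4794, 4999.7 and 6727 in wild-type replicates 1 to 3. Of its other markers Ms4a1, Pou2af1, Cd22 and Cd79a were highest in wild-type replicate 3 and Cd79b in heterozygous replicate 1. All 4 of these summed signals were highest in wild-type replicate 3, as was that of exocrine pancreas markers, at 1234. Within them the goblet cell marker Tff3, the smooth muscle marker Acta2 and the fibroblast marker Dcn were highest in other arrays. Summed markers of macrophages and dendritic cells, endothelium and adipocytes were lowest in wild-type replicate 3, at 4997, 482.5 and 4238. The 8 colon epithelium markers summed to 51407, 59172 and 60964 in heterozygous and 57954, 60944 and 53134 in wild-type replicates 1 to 3, lowest in heterozygous replicate 1 and next in wild-type replicate 3. The part of cell makeup or of the position sampled along the colon in these values was not tested.

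**Figure D4:**
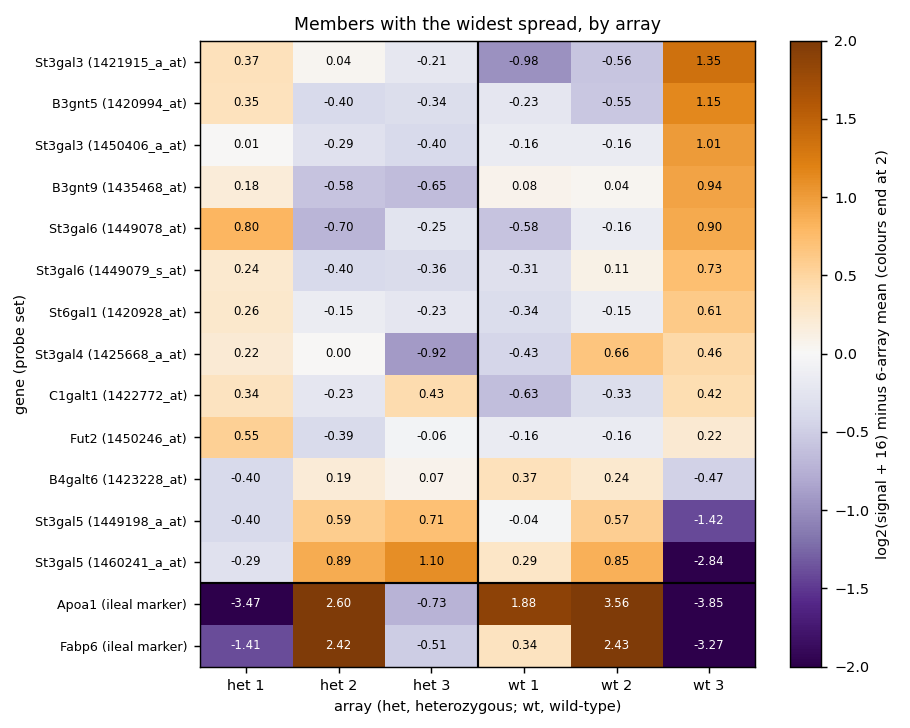
Log2(signal + 16) minus the mean of the 6 arrays for the 13 member probe sets of widest spread and, under the line, the ileal markers Apoa1 and Fabp6; columns are the heterozygous arrays and, right of the line, the wild-type arrays, orange is high and purple low. St3gal5 and the ileal markers are at their lowest in wild-type replicate 3, where St3gal3 and B3gnt5 are at their highest.

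Wild-type replicate 3 was the array in which members most often had their highest signal. Of the 56 member probe sets 24, or 42.9%, did so, against 22.4% of all tested probe sets. Counted over genes at their brightest tested probe set, these shares were 45% of 40 members and 23.9% of 8243 genes. Heterozygous replicate 3 came next among all tested probe sets, at 20.4%, and held 16.1% of the members. Probe sets of 1 array share its RNA, so these shares describe that mouse's sample and were not tested.

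**Figure D5:**
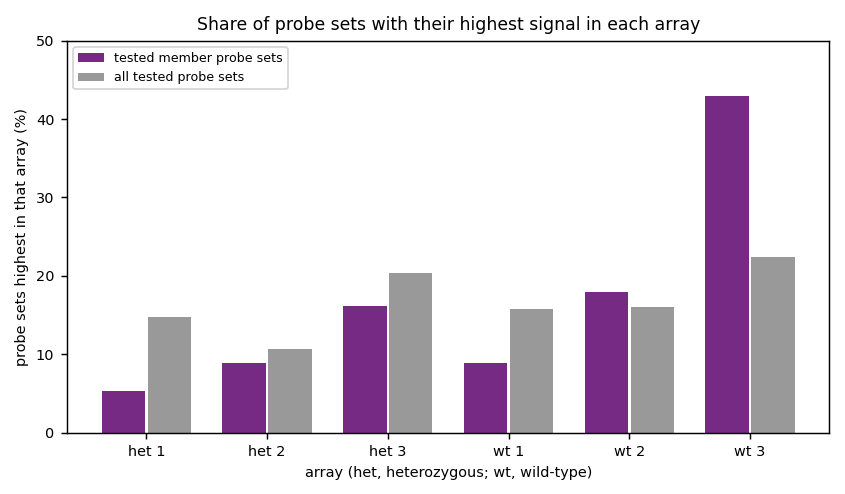
Percent of probe sets whose highest signal fell in each array, heterozygous arrays left and wild-type arrays right; purple bars are the 56 member probe sets and grey bars all 13576 tested probe sets. The purple bar of wild-type replicate 3 reaches 42.9% beside a grey bar of 22.4%.

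Probe sets of the same gene offered a further check. Of 13 genes with several tested probe sets, 8 had log2 differences of 1 sign and 5 of mixed sign (B4galnt2, B4galt6, C1galt1, Mgat2 and St3gal3). For B4galnt2 both values were within 0.02 of 0, and Galnt2 counted as 1 sign at -0.0021 and -0.32.

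The wider pathway showed no call either. Over all tested probe sets 5.27% were higher and 5.1% lower in heterozygous colon without overlap, the background for each non-overlapping gene named below. Of the secreted mucus proteins all 5 tested genes, Zg16, Tff3, Clca1, Agr2 and Fcgbp, had log2 differences between -0.11 and -0.05, and 0 passed; Zg16 did not overlap, lower in all 3 heterozygous arrays. Of 7 measured mucin genes 3 were tested and 0 passed. Muc13, a membrane mucin of the colonocyte surface, read 7419, 7469 and 9592 in heterozygous and 5936, 6514 and 6916 in wild-type arrays, with all 3 heterozygous arrays higher (log2 difference 0.33, SE 0.11, limma adjusted p = 0.752). Muc3 had a log2 difference of 0.03. Muc4 read 127, 125 and 140 in heterozygous and 148, 141 and 294 in wild-type arrays, without overlap and with wild-type replicate 3 the highest. Muc2 was not analysed here.

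Genes of sugar donors and their carriers had mostly negative log2 differences, and both lists had their highest summed signal in wild-type replicate 3. Of 18 tested genes of sugar nucleotide synthesis 12 were below 0, with a median log2 difference of -0.19, and of 9 tested transporters 8 were below 0, with a median of -0.10. None of either list passed. Slc35a2, which carries UDP-galactose into the Golgi, read 433, 406 and 333 in heterozygous and 476, 642 and 589.7 in wild-type arrays. All 3 heterozygous arrays were lower (log2 difference -0.52, SE 0.16, limma adjusted p = 0.679). Gnpda1, which breaks down glucosamine phosphate, had -0.42 (SE 0.13, limma adjusted p = 0.686), and Cmas, which activates sialic acid, -0.22 (SE 0.10). Of 6 tested sulfation genes, 4 tested genes of mannose trimming, 2 tested St6galnac genes and 8 other tested glycosyltransferases, 0 passed. Their medians were -0.05, 0.08, -0.16 and 0.03. Ogt, which places N-acetylglucosamine on nuclear and cytosolic proteins, read 2069, 1904 and 2250 in heterozygous and 1327, 1687 and 1879.5 in wild-type arrays, with all 3 heterozygous arrays higher (log2 difference 0.36, SE 0.14, limma adjusted p = 0.814).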

How the data were processed

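The authors deposited linear intensities, 1 per probe set, from 1-colour arrays hybridised with biotin-labelled amplified RNA. The tool they used was GCOS, per the submitters' processing notes; no version or setting is stated there. The deposited file showed that the arrays share a trimmed mean of 500.2 when the top and bottom 2% are left out, so they were used as deposited, and the number of arrays limits the precision. Of 22690 probe sets, 64 controls were left out, 20380 had 1 gene symbol, 691 several and 1555 none in the platform annotation. The symbols of all 60 member genes matched the GRCm38.p6 gene table.

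Log2(intensity + 16) was fitted with limma 3.58.1 in R 4.3.3 (variance trend, two-sided, Benjamini-Hochberg over 13576 probe sets, threshold 0.05). Intervals are at 95%. The fit was tested on simulated data. A gene's brightest probe set stood for it in orders and lists. The genes named are, by rule, the 3 brightest and the smallest p of each family, the 8 smallest p in each direction, the 5 widest and 5 narrowest spreads, a fixed set of mucin route genes and up to 3 genes of each pathway list; other members are named in the account of their family. The members, lists and tests were chosen with earlier results of these data known. Alternatives covered normalization, pseudocount, filter, variance model, array weights, the replicate number as a block, probe sets per gene, each array left out, and an ileal covariate added after seeing the data. For same-numbered arrays of the genotypes the correlations of their deviations from the group means were -0.124, 0.504 and 0.0496. Differently numbered arrays were not compared, so these values cannot say whether the numbers pair the mice.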

Additional observations from a re-analysis of the deposited data

How the results depend on the processing

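No member probe set passed the threshold under any of the 12 alternatives or the 6 fits that left out 1 array. Members with an unadjusted limma p under 0.05 numbered 5 without the filter (4.9%, against 6.17% of all probe sets), 1 at the 60th percentile filter (2.63%, against 4.91%), 4 without a variance trend (7.14%, against 6.17%), 6 with the ileal covariate chosen after seeing the data (10.7%, against 7.77%) and 1 to 4 with an array left out (1.79% to 7.14%, against 3.23% to 7.62%), where the main setting gave 2. Over all probe sets the calls numbered 8 with robust variance, 4 with array weights, 2 with 1 probe set per gene, 8 with the ileal covariate and 0 to 39 with an array left out, against 0; the 39 came without heterozygous replicate 1. Unadjusted counts over all probe sets were 1395 without the filter, 444 at the 60th percentile, 443 with 1 probe set per gene and 439 to 1035 with an array left out, against 771. The filter and the choice of 1 probe set per gene change how many probe sets enter; the cause of the other changes was not tested. The lowest count, 439, came without heterozygous replicate 3. With the replicate number as a block, 925 had an unadjusted p under 0.05, 0 of all probe sets and 0 members were called, and the member median stayed at -0.08; this block changed no call. The share of genes whose tested probe sets had 1 sign was 33.3% to 76.9% with an array left out, against 61.5%. The member median ran from -0.11 to -0.01, the Mthfd1 differences from -0.87 to -0.73 and -1.09 to -0.87, and 11 or 12 of 12 families kept their brightest gene. Without wild-type replicate 3, 18 of 55 member probe sets changed sign, St3gal5 at its dimmer probe set among them; without any other array, 5 to 9 of 56 did.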

Other observations

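Of the 46 member probe sets below the filter 5, or 10.9%, did not overlap between the genotypes, against 12.2% of all 9050 probe sets below it. In heterozygous colon 2 were higher (4.35%, against 3.47%) and 3 lower (6.52%, against 8.76%), shares near those of all such probe sets. Their signals are not shown to be above background and are given as values only. The dimmest probe set of St3gal2 read 10.6, 8.6 and 9.2 in heterozygous and 26.4, 40.5 and 36 in wild-type colon, and had the smallest p of the members when no filter was set (limma adjusted p = 0.491). B4galt5, a lactosylceramide synthase, read 8.9, 4.2 and 15.8 in heterozygous and 16.9, 19.3 and 34.7 in wild-type colon. A dim probe set of C1galt1c1 read 44.3, 47.7 and 49.5 in heterozygous and 26.8, 29.5 and 34.7 in wild-type colon, while the bright probe set of that gene overlapped. A probe set of Gcnt2 read 75.3, 56.3 and 54.3 in heterozygous and 43.9, 50.8 and 52.7 in wild-type colon, and the dim probe set of St8sia4 was the fifth.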
